A study of Homo sapiens with 8 samples.

Results

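The RAS-MAPK genes SPRY2, SPRY4, DUSP4, PTPN11, MAP2K1, MAP2K2 and MAPK3 were followed through a table of N1-methyladenosine (m1A) sites. They were chosen by name, by matching the gene field of each site's annotation, with earlier results of these data known. All 7 were among the 4945 genes of the table, which is therefore not a finding. The 7 genes held 21 of the table's 9962 single-base positions. These were listed on 28 of its 25539 lines, because a base is repeated for each transcript that covers it. The groups were neuroblastoma cells transfected with siRNA against TRMT6 (siTRMT6, 2 libraries) and control cells (2 libraries). TRMT6 is the partner subunit of the methyltransferase that places m1A. The labels do not name the siRNA sequence or what the control cells received, nor do they say whether replicates were separate cultures. The spread behind each p-value is therefore one between libraries and may be technical. Per the labels' protocols, polyadenylated RNA was fragmented and pulled down with an m1A antibody, and the table's reads were taken as those of the immunoprecipitates. A further 4 input libraries are not analysed here, so an m1A level and a transcript level cannot be told apart in any value below.

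Growth factor receptors switch on RAS through adaptor proteins and the phosphatase SHP2, which PTPN11 encodes. RAS then activates RAF, the kinases MEK1 and MEK2 (MAP2K1 and MAP2K2) and finally ERK, of which MAPK3 encodes the form ERK1. Active ERK induces its own inhibitors: Sprouty proteins such as SPRY2 and SPRY4, which restrain signalling between receptor and RAF, and dual-specificity phosphatases such as DUSP4, which remove the activating phosphates from nuclear MAP kinases. RAS pathway mutations recur in relapsed neuroblastoma. The sample titles name the cells SK-N-BE, while the source and cell line fields name SK-N-AS, a line known for an activating NRAS mutation and for a single-copy MYCN gene, unlike SK-N-BE with its MYCN amplification. MYCN held 48 and 59 reads in the siTRMT6 libraries and 50 and 53 in the controls. Reads at m1A sites do not measure gene copies, and which line was used was not tested.

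Of the 21 bases, 2 could be shown in sequence, both at the start of MAP2K2. RefSeq windows around gene starts (GRCh38.p14) were at hand for 5 of the 7 genes, and MAP2K2 alone had listed bases inside one. The stretch at chr19:4124090-4124119, minus strand, is shown because it begins at the base read in siTRMT6 and ends at the base read in the control. It is written 5′ to 3′ as in the transcript, with T for U, and the capitals mark the listed bases.
MAP2K2: TcggactcgggctgcggcgtcagccttctT
Both listed bases are T on the transcript strand, that is, U in the mRNA and A on the opposite, plus strand of the genome. Across all genes, 554 listed positions lay in such windows, and all 554 had A on the plus strand of the genome. Of these, 170 belonged to plus-strand transcripts, where the RNA base is A, and 384 to minus-strand transcripts, where it is U. SPRY2, SPRY4, DUSP4, MAP2K2 and MAPK3 are minus-strand genes with 12 of the 21 positions. A methylated adenosine cannot stand at a U of the same RNA, so a minus-strand position is a listed base of its gene and not shown to be an m1A of its transcript. Whether the table takes account of strand is not stated. The base could be read at the MAP2K2 positions alone, so whether the other 10 minus-strand positions are A or U in the RNA was not tested.

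The feedback inhibitors held fewer listed reads in siTRMT6 than in the control, and the kinases about as many. SPRY2, SPRY4 and DUSP4 together held 30 reads in siTRMT6 and 105 in the control, at 8 positions. MAP2K1, MAP2K2 and MAPK3 together held 32 reads in siTRMT6 and 33 in the control, at 7 positions. PTPN11 held 25 reads in each condition, at 6 positions. The class sums themselves were not tested between libraries. A permutation test of the feedback share, given below, could not go below p = 0.333. No member was called in the other tests between libraries, where most members did not pass a filter on low counts. Control 2 supplied most of the control reads. Of the 7 genes, 2 (SPRY2 and SPRY4) had reads in the control alone and 5 in both conditions; of all 4945 genes, 33.9% had reads in the control alone, 27.0% in siTRMT6 alone and 39.1% in both. The share with control reads alone, 28.6%, was thus not above that of all genes.

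The read totals of the libraries differed widely. At all listed positions, siTRMT6 1 and siTRMT6 2 held 40771 and 13812 reads, against 8655 and 46007 in control 1 and control 2. The 7 genes held 74 and 13 of these reads in the siTRMT6 libraries and 10 and 153 in the controls. That is 0.182% and 0.0941% of the siTRMT6 reads and 0.116% and 0.333% of the control reads. Their 95% exact binomial intervals, which cover counting error only, were 0.143 to 0.228 and 0.0501 to 0.161 in siTRMT6, and 0.0554 to 0.212 and 0.282 to 0.390 in the control. The interval of control 2 lies above those of the other libraries. The neuroblastoma identity of the cells was checked on a list of 12 adrenergic markers, of which 9 had a listed position; ISL1 was among those with none. These 9 summed to 366 and 282 reads in siTRMT6 and 123 and 388 in the control. Of 12 mesenchymal markers 3 were listed, with 21 and 19 reads in siTRMT6 and 25 and 12 in the control. Of 6 markers of fibroblasts and blood cells, PDGFRB was listed, with 13 reads in control 2.

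**Figure D1:**
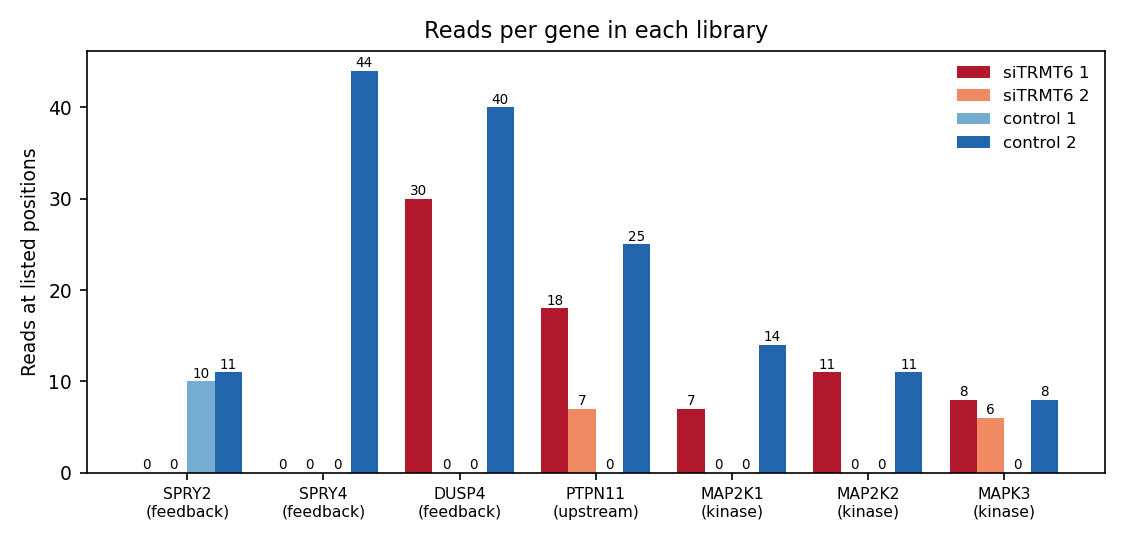
Reads at listed positions, summed per gene (vertical axis), for each of the 7 genes (horizontal axis, with its class) and each of the 4 libraries; bars carry their counts. SPRY2 and SPRY4 have no siTRMT6 reads, while the kinase genes and PTPN11 have reads in siTRMT6 1 and control 2.

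SPRY2 was listed in control libraries and at 0 in siTRMT6. Its sums were 0 and 0 reads in siTRMT6 1 and 2, against 10 and 11 in control 1 and 2. Both control libraries therefore lay above both siTRMT6 libraries. How many of all genes separate in this way was not counted, so the separation cannot be called particular to SPRY2. Of all members, SPRY2 was the one with reads in control 1. Its bases lay in the 5′ UTR, both on chromosome 13: 80339293 (nucleotide 367 of ENST00000377102.2) in control 1 and 80340889 (nucleotide 63 of ENST00000377104.3) in control 2. They are 1596 nt apart on the genome, and each control library had reads at 1 of them. With a floor of 3 counts for siTRMT6 and scaling by the reads at listed positions, the log2 ratio was -2.81, and the upper end of its 95% exact counting interval was -2.38. It was -0.82 without siTRMT6 1, -2.12 without control 1 and -4.39 without control 2. These values assume that a deposited 0 means no reads, which the file does not state.

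SPRY4 had the 2 highest counts of any member position, both in a single library. It held 0 and 0 reads in siTRMT6 1 and 2, against 0 and 44 in control 1 and 2. The groups overlap at 0, and the whole difference rests on control 2. In that library 22 reads stood at 142314625 in the coding sequence (nucleotide 740 of ENST00000344120.4) and 22 at 142311236 in the 3′ UTR (nucleotide 4129 of that transcript), both on chromosome 5. Of all listed positions, 5.60% had as many reads or more. With the same floor and the same assumption on a deposited 0, the log2 ratio was -3.87 (upper end of the counting interval -3.51), and it was -1.89 without siTRMT6 1. Without control 2, SPRY4 has no reads in any library and no value.

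DUSP4 differed from the Sprouty genes in having siTRMT6 reads. It held 30 and 0 reads in siTRMT6 1 and 2, against 0 and 40 in control 1 and 2. One library of each condition was high and the other at 0, so the groups overlap throughout. Its 4 positions lay on chromosome 8. Control 2 had 21 reads at 29336455 and 19 at 29334242, both in the 3′ UTR, and siTRMT6 1 had 15 at 29336460 in the 3′ UTR and 15 at 29337321 in the coding sequence. The log2 ratio of siTRMT6 over control sums was -0.41, with a 95% exact counting interval of -1.15 to 0.31 that spans equal reads. Against a floor of 3 counts it was 0.67 without control 2 and -1.75 without siTRMT6 1, so its sign rests on which library is kept. It was 0.17 when each transcript's line was counted.

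PTPN11, the activating phosphatase upstream of RAS, had the most positions of the 7 genes and even sums. It held 18 and 7 reads in siTRMT6 1 and 2, against 0 and 25 in control 1 and 2. The siTRMT6 values lie between the 2 control values. Of its 6 positions on chromosome 12, the control read 112446361 (6 reads) and 112453326 (7 reads) in the coding sequence and 112508517 (12 reads) in the 3′ UTR, all in control 2. In siTRMT6 the 3 positions were all in the 3′ UTR, with 7 reads at 112508484 in siTRMT6 2, and 9 at 112508503 and 9 at 112508893 in siTRMT6 1. The log2 ratio of the sums was 0.0021 (counting interval -0.86 to 0.86). RefSeq names 5 pseudogenes after PTPN11 and 1 after MAP2K1. None of them held a listed position, but how reads that map to several places were treated is not given in the sources used here, so the counts of these genes are uncertain.

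The MEK genes were listed at low counts in the same pair of libraries. MAP2K1 held 7 and 0 reads in siTRMT6 1 and 2, against 0 and 14 in control 1 and 2. On chromosome 15, control 2 had 6 reads at 66387355 in the coding sequence and 8 at 66491014 in the 3′ UTR, and siTRMT6 1 had 7 at 66490852 in the 3′ UTR. Its log2 ratio of -0.998 had a counting interval of -2.55 to 0.41. MAP2K2 held 11 and 0 reads in siTRMT6 1 and 2, against 0 and 11 in control 1 and 2. The siTRMT6 reads stood at 4124119, nucleotide 11 of ENST00000262948.6, and the control reads at 4124090, nucleotide 40, both in the 5′ UTR shown above. The log2 ratio was 0.0021 (counting interval -1.34 to 1.35). For both genes the groups overlap, since each condition has a library at 0.

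MAPK3, which encodes ERK1, was the one member with reads of both siTRMT6 libraries at the same base. It held 8 and 6 reads in siTRMT6 1 and 2, against 0 and 8 in control 1 and 2. The siTRMT6 values lie within the range of the controls. The siTRMT6 reads stood at 30122155 of chromosome 16 and the control reads at 30122164. The table places both in the 5′ UTR of ENST00000484663.2, at nucleotides 814 and 805, about 1 kb (1065 and 1056 nt) inside the RefSeq start of the gene. The log2 ratio was 0.81 (counting interval -0.54 to 2.27), the highest of the 7 genes when all 4 libraries were used. It was -0.43 without control 2 (against a floor of 3 counts), where DUSP4 was higher, and 1.57 without siTRMT6 1. Position 30122155 was also the one member position with reads in more than 1 library. Of all listed positions, 98.6% had reads in 1 library.

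The classes were then compared within each library, so that a scale common to all reads of a library cancels. The share does not correct for which positions were listed in a library. Member positions with reads numbered 7 and 2 in siTRMT6 1 and 2, against 1 and 12 in control 1 and 2. The part of library totals in the shares was not tested. Feedback genes made up 53.6% and 0% of the feedback and kinase reads in siTRMT6 1 and 2 (of 56 and 6 reads), against 100% and 74.2% in control 1 and 2 (of 10 and 128 reads). The exact 95% intervals were 39.7 to 67.0 and 0 to 45.9 in siTRMT6, and 69.2 to 100 and 65.7 to 81.5 in the control. The means were 26.8% ± 37.9 in siTRMT6 and 87.1% ± 18.2 in the control (SD, n = 2 each), and both siTRMT6 libraries lay below both controls. The difference of -60.3 percentage points gave p = 0.333 in a two-sided exact permutation test over the 4 libraries, the smallest value that 2 against 2 allow. It was -33.5 points without siTRMT6 2, whose share rests on 6 MAPK3 reads. Control 1 entered through the 10 SPRY2 reads alone.

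**Figure D2:**
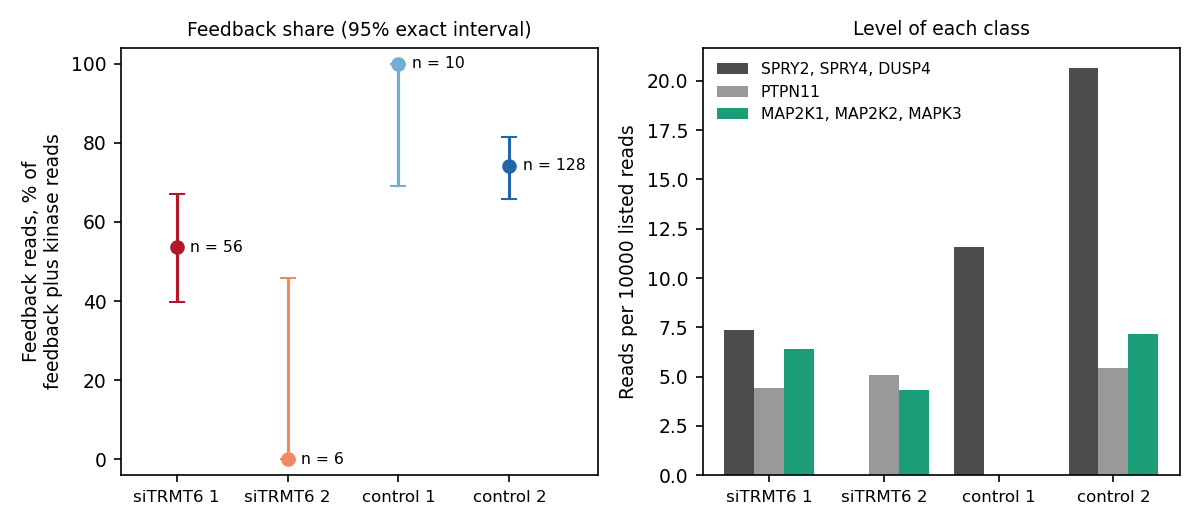
Left, feedback reads as a percent of feedback plus kinase reads in each library, with 95% exact intervals and n reads; right, reads of each class per 10000 listed reads of the library. The siTRMT6 shares (53.6% and 0%) lie below the control shares (100% and 74.2%), and the feedback bar is highest in control 2.

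Scaled per 10000 listed reads, the feedback genes stood at 7.36 and 0 in siTRMT6 1 and 2 and at 11.6 and 20.6 in control 1 and 2. The kinases stood at 6.38 and 4.34 in siTRMT6 and at 0 and 7.17 in the control, and PTPN11 at 4.41 and 5.07 in siTRMT6 and at 0 and 5.43 in the control. On this scale the feedback values of the groups do not overlap, whereas those of the kinases and of PTPN11 do. That overlap comes from control 1 alone, which held no kinase or PTPN11 reads. Its feedback value rests on 10 SPRY2 reads among 8655 listed reads. How often other sets of genes separate in this way was not counted, so a difference between the classes is not shown. The positions of each class were also counted by transcript region, with no test between the classes. Feedback positions were 2 in the 5′ UTR, 2 in coding sequence and 4 in the 3′ UTR. Kinase positions were 4 in the 5′ UTR, 1 in coding sequence and 2 in the 3′ UTR. These counts follow single genes. The 5′ UTR positions of the kinases were 2 in MAP2K2 and 2 in MAPK3, with 0 in MAP2K1. Those of the feedback genes were both in SPRY2. The median was 17 reads per feedback position (range 10 to 22) and 8 per kinase position (range 6 to 14), against 9 over all listed positions. Over the 7 genes, 28.6% of positions were in the 5′ UTR, 23.8% in coding sequence and 47.6% in the 3′ UTR, against 11.3%, 61.7% and 21.1% over all genes.

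In 5 of the 7 genes a siTRMT6 base and a control base lay close together. When positions of a gene up to 200 nt apart were joined, 5 of the 15 regions obtained (33.3%) contained reads of both conditions, against 17.3% of the 8488 regions of all genes. By gene, 5 of the 7 had such a region, against 25.4% of all 4945 genes. The median was 2 positions per gene in both sets, but 22 reads per gene in the members and 14 over all genes. The comparison did not allow for this difference in reads. The control base was 5 nt downstream of the siTRMT6 base in DUSP4, 29 nt downstream in MAP2K2 and 162 nt downstream in MAP2K1. It was 9 nt upstream in MAPK3. In PTPN11 the bases of siTRMT6 2, siTRMT6 1 and control 2 followed each other 19 and 14 nt apart. Within these regions DUSP4 held 15 siTRMT6 reads and 21 control reads, PTPN11 16 and 12, MAP2K1 7 and 8, MAP2K2 11 and 11, and MAPK3 14 and 8. The log2 ratios ran from -0.48 in DUSP4 to 0.81 in MAPK3 with a median of 0.0021, and the median over the 1470 such regions of all genes was -0.15. SPRY2 and SPRY4 had no such region. In each of the 5 regions the deposited table gave fold changes of both signs. This follows from how the regions were picked, since each base held reads of 1 condition and each region both. The authors' deposited table had log2 values of 4.72 and -5.58 at the DUSP4 bases 5 nt apart, and of 4.62 and -4.18 at the MAPK3 bases.

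**Figure D3:**
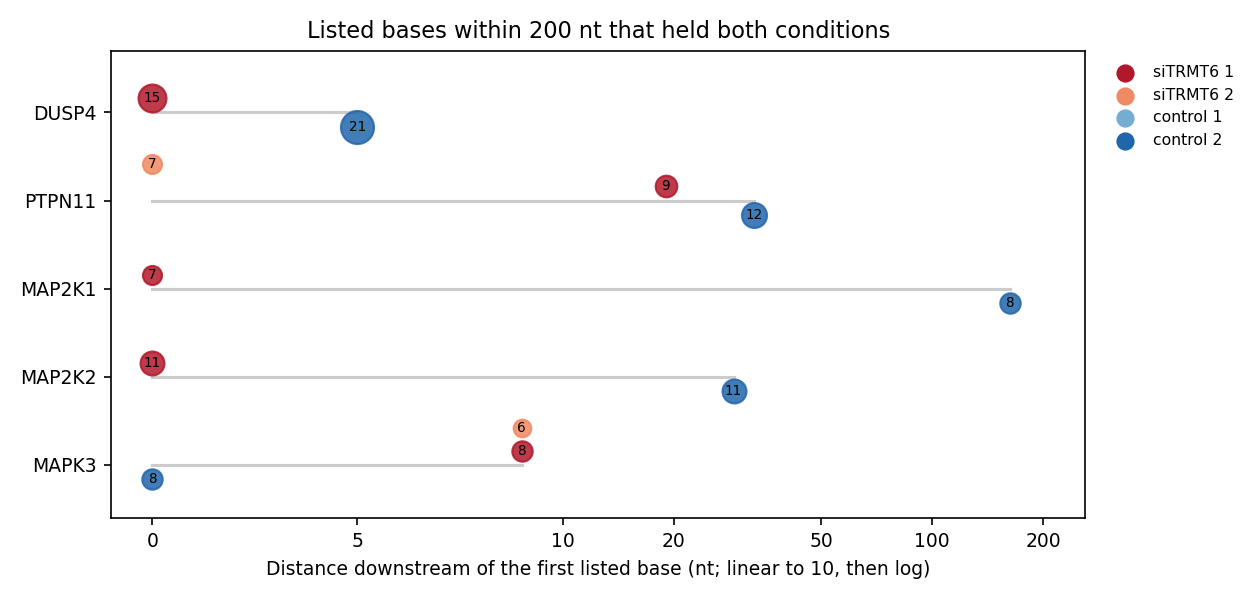
Listed bases of the 5 genes whose siTRMT6 and control bases lay within 200 nt, by distance downstream of the first base of the group (nt, linear to 10 and then logarithmic); point area and number give the reads, colour the library. Control 2 and siTRMT6 bases sit side by side, 5 nt apart in DUSP4 and 162 nt apart in MAP2K1.

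In the authors' deposited table, 8 of the 21 positions were higher and 13 lower in siTRMT6, each with an adjusted p below 0.05 (largest 0.0244). The authors called 49.6% of all listed positions higher and 50.4% lower, so nearly every listed position carries a call. In the authors' deposited table the p-value followed the summed reads of each condition: positions with equal sums in both conditions carried an equal p-value, with 0 exceptions among 126 combinations of sums. The spread between replicates thus did not enter it, and 20 of these 21 positions had reads in 1 library.

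Tested between libraries with edgeR's quasi-likelihood test, no member was called. None of the 21 positions passed the filter on low counts. That filter left 34 positions, of which 22 (64.7%) were called. This count was 0 with DESeq2, with no filter, with the replicate block, and without each library in turn. Summed per gene, DUSP4 and PTPN11 passed the filter, with log2 fold changes of -0.29 and 0.42 and an edgeR adjusted p of 0.9997 each. The background was 0 of 975 genes called (0%), with 128 genes at an unadjusted p below 0.05, none of them a member. DESeq2 called 1 of the 975 genes, with 47 at an unadjusted p below 0.05, and again no member. With TMM scaling the median log2 fold change was 0.27 over the 975 tested genes, against 0.056 over 1106 tested genes with equal library sizes. These sets of genes differ, so the part of scaling alone was not tested. Of the joined regions, the DUSP4 pair alone passed the filter (log2 -0.41, edgeR adjusted p = 0.9999), and 0 of 525 regions (0%) were called, with 131 at an unadjusted p below 0.05. With no filter, edgeR gave SPRY4 the lowest unadjusted p of the 7 genes, 0.0583 (adjusted 0.841).

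The wider pathway was described with 68 other genes listed by role, of which 21 had a listed position and 8 passed the filter on gene sums. None of these 8 was called by edgeR, and PHLDA1, a target of ERK signalling, was the one with an unadjusted p below 0.05. The median log2 of the 8 was -0.15, against 0.27 over all 975 genes tested. The 68 genes held 381 reads in siTRMT6 and 379 in the control. Both conditions had reads in 13 of the 21 genes, siTRMT6 alone in 5 and the control alone in 3, beside the 39.1%, 27.0% and 33.9% of all genes given above.

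Among adaptors, 4 of 8 genes were listed, with 45 reads in siTRMT6 and 83 in the control. SHC1, which links receptors to GRB2, held 21 and 0 reads in siTRMT6 1 and 2, against 0 and 53 in control 1 and 2. GAB2, a docking protein that binds SHP2, held 24 and 0 reads in siTRMT6, against 20 and 0 in the control. Of 15 RAS genes and regulators, 4 were listed, and NRAS, HRAS and NF1 were not. DAB2IP, which speeds the inactivation of RAS, held 31 and 0 reads in siTRMT6 1 and 2, against 0 and 45 in control 1 and 2.

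Other kinases and scaffolds were listed in 6 of 16 cases, with 86 reads in siTRMT6 and 60 in the control. PEBP1, an inhibitor of RAF, held 16 and 7 reads in siTRMT6, against 8 and 21 in the control, reads in all 4 libraries. PEA15, which keeps ERK in the cytoplasm, held 13 and 0 reads in siTRMT6, against 0 and 15 in the control. BRAF, a kinase directly below RAS, had no listed position.

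Of 15 other feedback genes, 2 were listed, with 15 reads in siTRMT6 and 10 in the control. DUSP7, a cytoplasmic ERK phosphatase, held 9 and 0 reads in siTRMT6, against 0 and 10 in the control. DUSP16, which acts mainly on JNK and p38, held 6 and 0 reads in siTRMT6 and none in the control. SPRY1, SPRED1, SPRED2 and DUSP6 had no listed position, so the low siTRMT6 reads of SPRY2 and SPRY4 could not be set against their closest relatives. Of 14 targets, 5 were listed, with 176 reads in siTRMT6 and 149 in the control. CCND1, the G1 cyclin D1, held 96 and 12 reads in siTRMT6, against 0 and 112 in the control. EGR1, an immediate early transcription factor, held 24 and 0 reads in siTRMT6, against 11 and 10 in the control.

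**Figure D4:**
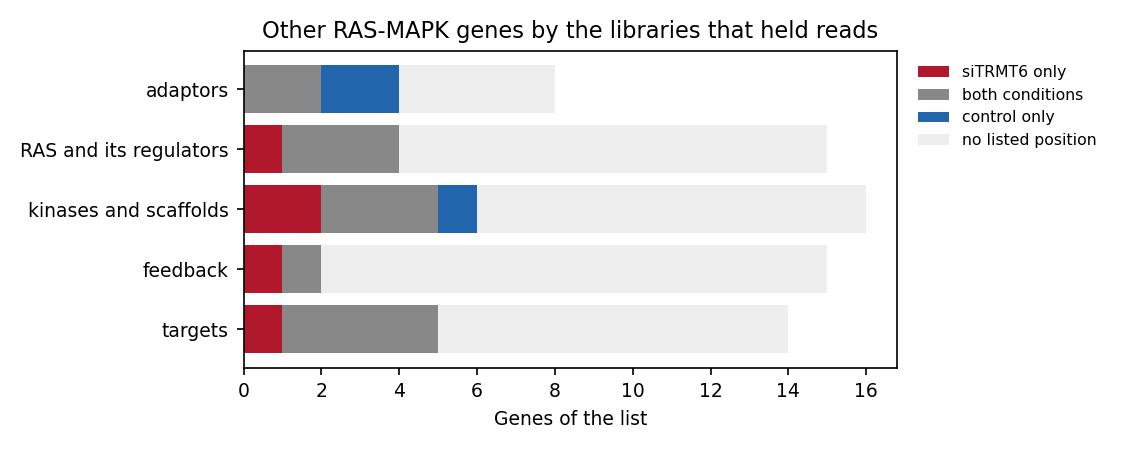
The number of genes of each role in the wider list (horizontal axis), divided into genes with reads in siTRMT6 alone, in both conditions, in the control alone, and with no listed position. Of the 15 other feedback genes 2 were listed, and of the 14 targets 5.

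Summed, the 7 genes had 29.6% and 5.20% of their reads in siTRMT6 1 and 2 and 4% and 61.2% in control 1 and 2. Among 501 other genes with at least 50 reads, those with the most similar division over the 4 libraries were TRIO, TULP4 and DNM2. The absolute differences in these shares, summed and divided by 2, were 0.0586, 0.0666 and 0.0668, where 0 means equal shares, and the median gene had 0.304. TRIO held 28 and 9 reads in siTRMT6 and 0 and 54 in the control.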

How the data were processed

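The submitters' processing notes name the tools FastQC (version 0.11.3) and STAR and the build hg38. The caller, the counting rule, the use of input and the statistical test are not given. Per the file headers, the deposited table has a count per position in 2 control and 2 siTRMT6 columns. It also gives the authors' log2 fold change and the authors' p-value, raw and adjusted. Column names do not say m1A or input; they were taken as m1A because the table lists m1A sites. Positions were converted to count from 1, and a base listed for several transcripts was counted once per gene. Totals cover listed positions, not sequencing depth. Counts were tested with edgeR 4.0.16 in R 4.3.3 (quasi-likelihood test after TMM scaling and filterByExpr with minimum count 10, Benjamini-Hochberg adjustment at 0.05) over all positions and all gene sums; alternatives were DESeq2 1.42.0, equal library sizes, no filter, the replicate block and leaving out each library. The edgeR steps were run on simulated data whose spread between libraries was set far below that of the real gene sums (edgeR common dispersion 2.59). That run checks the steps, and not whether the fit could find changes in these data. All 7 genes are named, and up to 2 genes per role of the wider list, those with most reads. Some genes of the lists are not reported here. PHLDA1 and genes without a position were named after their values were seen. Members and lists were chosen with earlier results of these data known.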

Additional observations from a re-analysis of the deposited data

How the results depend on the processing

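The feedback share was lower in siTRMT6 than in control under all 8 alternatives, with differences from -87.1 to -33.5 percentage points. When a library was left out this direction was fixed in advance, because both siTRMT6 shares lay below both control shares. With the replicate block the difference equals the main one by construction, -60.3 points (sign flips of 2 pairs, exact p = 0.5). These runs therefore say nothing of stability. The other alternatives, with all libraries and no block, each gave p = 0.333 in the permutation test. None of these p-values could pass the threshold in a design of this size. The shared replicate numbers do not pair the samples by the labels, and the deviations of same-numbered libraries correlated at -0.0993 over 975 genes. The count of 22 called positions was 0 with DESeq2, with no filter and with the replicate block, and 0 to 0 when 1 library was left out. The block has more terms, and leaving out a library leaves fewer samples and changed which positions passed the filter. The cause was not tested for any of these alternatives. With equal library sizes it was 29 of 37, 10 higher and 19 lower, against 13 higher and 9 lower with TMM. Called genes numbered 0, and 1 with DESeq2. No member position or gene was called under any alternative run, but 6 of the 9 position fits tested no member position, and the gene fits tested 1 to 7 members, so this says little of stability. The log2 of SPRY2 and SPRY4 ran from -4.39 to -0.82 and from -5.46 to -1.89; with no siTRMT6 reads their sign was fixed by the zeros. That of DUSP4 changed sign in 3 of 8, of MAP2K2 and PTPN11 in 4 of 8 each, and of MAPK3 in 1 of 8. Regions with both conditions numbered 4 at 100 nt and 5 at 500 nt. The scale of the authors' fold change was chosen after seeing the data, as were the joined regions tested with edgeR.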

Other observations

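The strand of the genes is shared unevenly between the classes. SPRY2, SPRY4 and DUSP4 are all on the minus strand of the genome, as are MAP2K2 and MAPK3, while PTPN11 and MAP2K1 are on the plus strand. Over the whole table, 72.8% of the 10250 pairs of a listed position and a strand were on the plus strand, a position listed for transcripts of both strands counting once for each. The siTRMT6 libraries held 49.1% of the reads of plus-strand positions and 52.0% of those of minus-strand positions. The part of strand in the low siTRMT6 reads of SPRY2 and SPRY4 was not tested.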
